A study of Mus musculus with 9 samples.

Results

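The 36 genes described here encode the proteins that bring glucose into a cell, split it to pyruvate and lactate, pass pyruvate to the mitochondrion, make glycerol 3-phosphate and run the pentose phosphate pathway. They were chosen by gene symbol, and each was present in all 4 deposited tables. They correspond to 37 of the 29386 gene identifiers, because Aldoa carries a second identifier, ENSMUSG00000114515, which was kept out of every count of members. All 36 passed the filter on low values in every experiment, so no member was lost from the counts.

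The RNA came from 3 separate mouse experiments on Setdb1, whose enzyme product adds methyl groups to histone H3 lysine 9 and so helps to keep chromatin silent. In brown adipose tissue (BAT), 2 libraries were from Setdb1 AKO mice, which carry Setdb1 fl/fl and Adipoq-Cre, a recombinase driven by an adipocyte promoter, and 2 were from control mice, which carry Setdb1 fl/fl and no Cre. In primary brown adipocytes transfected with siRNA, 2 libraries were siSetdb1 and 1 was siNC. In primary brown adipocytes that all carry Setdb1 flox/flox and Rosa26Cre-ERT2, a Cre that acts when 4-hydroxytamoxifen is given, 1 library was from cells given 4-OHT at 1 µM and 1 from cells given the ETOH vehicle. Neither deletion had a Cre-active control with intact Setdb1, so Cre activity and loss of Setdb1 cannot be told apart, nor can the drug itself in the cells. Whether both siSetdb1 libraries received the same siRNA, the age and sex of the mice, and the meaning of the TN_CE prefix of the BAT titles are not given in the sources used here. Total reads on genes lay between 15979479 and 18468152 per library in BAT and siRNA, and were 30176359 in 4-OHT and 29911734 in ETOH.

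Setdb1 itself read 156 and 191 normalised counts in Setdb1 AKO BAT, against 455 and 473 in control BAT. The log2 fold change was -1.42 ± 0.19 (SE), with an adjusted p of 0.0216 (limma). It read 371 and 399 normalised counts in siSetdb1, against 784 in siNC, and 620 counts in 4-OHT, against 1070 in ETOH, so every Setdb1 AKO, siSetdb1 and 4-OHT library was lower than its controls. All 12 adipocyte markers were detected in every library, so the labelled tissue and cell type were present. All 10 macrophage markers were also detected in the 4-OHT experiment, summing to 2007 CPM (counts scaled to a common library total) in 4-OHT and 3606 CPM in ETOH. In bulk RNA, fewer cells of a type and less RNA per cell cannot be told apart.

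Glucose enters fat cells through GLUT transporters, of which GLUT4 is moved to the surface by insulin, and is trapped by hexokinase. Glycolysis then yields pyruvate, which becomes lactate or is oxidised through pyruvate dehydrogenase, while glycerol 3-phosphate drawn from the middle of the pathway forms the backbone of stored triglyceride. The pentose phosphate pathway runs beside glycolysis and supplies NADPH, the reducing agent of fatty acid synthesis. Active brown fat is known as a strong consumer of glucose.

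On the TPM scale, which divides reads by gene length and then scales each library to a common total, the genes differed from one another far more than any gene differed between groups. Gpd1, which makes glycerol 3-phosphate from dihydroxyacetone phosphate, had the highest level of all members in BAT, 3850 and 4635 TPM in Setdb1 AKO and 4181 and 4430 TPM in control. Aldoa, the main aldolase, stood beside it at 3524 and 4552 TPM in Setdb1 AKO and 3919 and 3168 TPM in control. Gpd1 was above Aldoa in each of the 4 BAT libraries, although their ranges over libraries overlapped. Eno1, an enolase of the lower steps, came next with 1371 and 1751 TPM in Setdb1 AKO and 1458 and 1046 TPM in control. Tkt, the transketolase of the pentose phosphate pathway, was just below Eno1 in each library, with 1369 and 1697 TPM in Setdb1 AKO and 1384 and 1013 TPM in control. At the other end, Pfkfb2, one of 4 enzymes that set the level of fructose 2,6-bisphosphate, an activator of phosphofructokinase, stayed between 0.787 and 1.40 TPM in the BAT libraries. Slc16a3, a lactate exporter of strongly glycolytic cells, lay between 2.32 and 4.03 TPM.

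The first comparison asked how these genes stood in BAT after Cre acted on Setdb1 in adipocytes. Most members read higher in Setdb1 AKO BAT, by modest amounts, and the pentose phosphate genes had the highest median of any step. Both Setdb1 AKO libraries exceeded both control libraries for 21 of the 36 members, against 25.1% of all 14466 genes tested. Both were below both controls for 3 members (Pfkfb2, Gapdh and Slc16a1), against 24.9% of genes. The fitted change was above 0 for 29 members, against 50.6% of genes, and the median log2 fold change was 0.28 over the members and 0.01 over all genes. Among genes with a mean of at least 1000 normalised counts, a background chosen after the levels were seen, 19 of 27 members and 27.4% of genes had both Setdb1 AKO libraries above both controls. There, 1 member and 21.8% of genes had both below, and the fitted change was above 0 for 25 members and 54.3% of genes.

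No member passed the main test on its own. Limma called 0 of 36 members, against 1.68% of all genes, at a false discovery rate below 0.05, with 1.0% of genes higher and 0.677% lower. EdgeR's quasi-likelihood test also called 0 members, against 1.02% of genes higher and 0.705% lower. At an unadjusted p below 0.05, 8 members were higher (8.64% of genes) and 1 was lower (9.08% of genes). DESeq2 on the recovered reads called 4 members, Pgd, Pkm, Ldha and Taldo1, all higher, against 2.52% of genes called higher and 1.98% called lower. The authors' deposited table has the same 4 members with an adjusted p below 0.05, with values of 0.00628 for Pgd, 0.0184 for Pkm, 0.0368 for Ldha and 0.0451 for Taldo1. The submitters' notes name DESeq2, and both results rest on the same reads, so this is no separate check. The scaling mattered for the counts: with scaling by library total alone, 17 members had both Setdb1 AKO libraries above both controls (18.6% of genes), and on TPM 12 (15.7% of genes). With scaling by library total the fitted change was above 0 for 26 members, against 42.1% of genes. Groups called apart below are so on normalised counts. On TPM they overlapped for Pfkl, Aldoa, Pgam1, Eno1, Ldhb, Pdhb, Pdk2, Gpd2 and Tkt. All members together held 2.03% and 2.48% of TPM in Setdb1 AKO, against 2.09% and 1.83% in control, so these shares overlapped. Of reads they held 3.38% and 3.86% in Setdb1 AKO, against 3.21% and 2.85% in control.

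**Figure D1:**
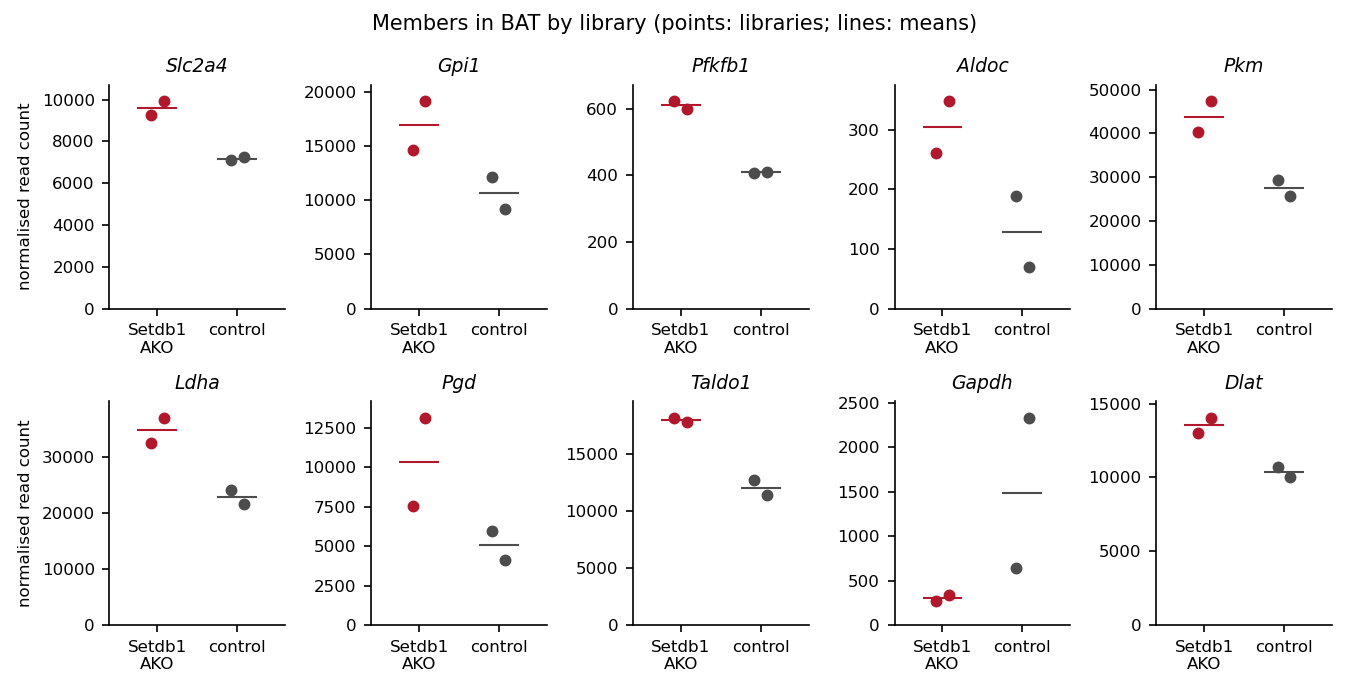
Normalised read counts of the 10 members with the smallest unadjusted p in BAT, by library, with Setdb1 AKO on the left, control on the right and a line at each mean. The groups do not overlap in any panel, the controls lie close together for Slc2a4 and Pfkfb1, and 1 control library stands far above all others for Gapdh.

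The median log2 fold change of the 4 pentose phosphate genes was 0.53, and the groups did not overlap for 3 of them. Pgd (GRCm38 chr4:149149991-149166771), the 6-phosphogluconate dehydrogenase that makes the second NADPH of the pathway, read 7559 and 13135 normalised counts in Setdb1 AKO, against 5983 and 4149 in control. Both Setdb1 AKO libraries were above both controls, although the Setdb1 AKO pair itself differed by 0.80 on the log2 scale. The log2 fold change was 1.00 ± 0.29 (SE), with an adjusted p of 0.149 by limma and 0.00753 by DESeq2, and adjusted values over all alternatives lay between 0.00753 and 0.633. Taldo1 (chr7:141392199-141402968), the transaldolase that returns sugars to glycolysis, read 18150 and 17745 normalised counts in Setdb1 AKO, against 12668 and 11361 in control. Its libraries were close within each group, and the log2 fold change was 0.58 ± 0.18 (SE), with an adjusted p of 0.160 by limma, 0.0467 by DESeq2 and between 0.0467 and 0.671 over all alternatives. Tkt read 76286 and 83958 normalised counts in Setdb1 AKO, against 64434 and 51471 in control. G6pdx, the entry enzyme of the pathway, was the exception, with 3571 and 5760 normalised counts in Setdb1 AKO and 3790 and 3217 in control, so its groups overlapped.

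Uptake and the first steps of glycolysis were less even. Slc2a4 (chr11:69942539-69948188), which encodes GLUT4, read 9284 and 9934 normalised counts in Setdb1 AKO, against 7125 and 7238 in control, with a log2 fold change of 0.42 ± 0.16 (SE) and an adjusted p of 0.234 (limma). The 2 groups were tight and apart, which was not so for the other glucose transporter. Slc2a1, which encodes GLUT1, read 564 and 635 normalised counts in Setdb1 AKO, against 406 and 861 in control, so the control libraries lay on both sides of the Setdb1 AKO pair. Gpi1 (chr7:34201330-34230336), the isomerase that turns glucose 6-phosphate into fructose 6-phosphate, read 14654 and 19161 normalised counts in Setdb1 AKO, against 12107 and 9210 in control (log2 fold change 0.67 ± 0.22 SE, adjusted p 0.187, limma). The hexokinases did not share a direction, with fitted log2 changes of 0.43 ± 0.27 (SE) for Hk1 and -0.23 ± 0.19 (SE) for Hk2, and both overlapped between groups. Hk2, the insulin-responsive hexokinase, carried most of this step in BAT.

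The phosphofructokinases Pfkl, Pfkm and Pfkp, which commit sugar to glycolysis, had fitted log2 changes between 0.14 and 0.27, and the groups were apart for Pfkl. For Pfkm they touched, with 1967 and 1650.8 normalised counts in Setdb1 AKO, against 1404 and 1650.7 in control. Of the PFKFB enzymes, Pfkfb1 (chrX:150588229-150643878) read 624 and 598 normalised counts in Setdb1 AKO, against 407 and 411 in control. Its libraries were close within each group, with a log2 fold change of 0.58 ± 0.15 (SE) and an adjusted p of 0.122 (limma). Pfkfb3, by far the most abundant of these 4 genes in BAT, did not follow it: it read 13351 and 15623 normalised counts in Setdb1 AKO, against 15173 and 13233 in control.

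In the lower part of glycolysis the fitted change was above 0 for 7 of 9 genes. Pkm (chr9:59656368-59679375), the pyruvate kinase, read 40303 and 47383 normalised counts in Setdb1 AKO, against 29382 and 25611 in control. The log2 fold change was 0.67 ± 0.23 (SE), with an adjusted p of 0.191 by limma, 0.0205 by DESeq2 and between 0.0205 and 0.718 over all alternatives. Aldoc (chr11:78322968-78327781), an aldolase best known from brain, was low, with 261 and 348 normalised counts in Setdb1 AKO, against 189 and 69.0 in control. Its log2 fold change of 1.39 ± 0.44 (SE; adjusted p 0.171, limma) rested on controls that differed by 1.44 on the log2 scale, and leaving out 1 library at a time moved it between 0.67 and 2.11. Pgk1, Pgam1 and Eno1, which carry the steps after Gapdh as far as phosphoenolpyruvate, had both Setdb1 AKO libraries above both controls, at log2 fold changes of 0.25, 0.17 and 0.44. On TPM the groups of Pgam1 and Eno1 overlapped, and those of Pgk1 did not. Tpi1, the triose isomerase, had overlapping groups.

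Lactate genes split by protein. Ldha (chr7:46841475-46855627), the lactate dehydrogenase subunit that favours lactate formation, read 32535 and 37009 normalised counts in Setdb1 AKO, against 24013 and 21642 in control (log2 fold change 0.61 ± 0.21 SE). Its adjusted p was 0.201 by limma, 0.0384 by DESeq2 and between 0.0384 and 0.717 over all alternatives. The carrier Slc16a1, which encodes MCT1, was one of the 3 members below both controls, with 7725 and 7717 normalised counts in Setdb1 AKO, against 9144 and 8273 in control. The log2 fold change of Slc16a1 was -0.17 ± 0.16 (SE), with an adjusted p of 0.630 (limma).

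Pyruvate dehydrogenase subunits stood together. Dlat (chr9:50634633-50659780), its acetyltransferase subunit, read 13013 and 14046 normalised counts in Setdb1 AKO, against 10718 and 9993 in control (log2 fold change 0.39 ± 0.17 SE, adjusted p 0.3004, limma). The subunits Pdha1 and Pdhb had log2 fold changes of 0.37 and 0.42, also with both Setdb1 AKO libraries above both controls. The kinases Pdk1 and Pdk2, which switch the complex off, had log2 fold changes of 0.14 and 0.07. Of the glycerol phosphate dehydrogenases, the mitochondrial Gpd2 had a log2 fold change of 0.34 with the groups apart, and the cytosolic Gpd1 one of 0.08 with the groups overlapping.

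Some values of other cells moved beside these results. The 6 erythroid markers summed to 794 and 781 CPM in Setdb1 AKO, against 529 and 588 in control. The 17 skeletal muscle markers summed to 49.6 and 43.0 CPM in Setdb1 AKO, against 50.6 and 102 in control, and Myh2 and Myh7 were at 0 in all 4 libraries. Their part in the results was not tested. The 12 adipocyte markers summed to 24754 and 19218 CPM in Setdb1 AKO, against 23421 and 21282 in control, so these groups overlapped. All 9 fibroblast and preadipocyte markers had a log2 fold change above 0 in BAT (median 0.22), and limma called 1 of them, Pi16, but their sums of 655 and 931 CPM in Setdb1 AKO overlapped those of 764 and 660 CPM in control. The 6 endothelial markers summed to 664 and 609 CPM in Setdb1 AKO, against 688 and 732 in control, and the 8 T and B cell markers to 6.76 and 4.98 CPM, against 13.9 and 7.45 in control. The part of these markers in the results was not tested either.

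Gapdh, the dehydrogenase often used as a reference gene, went the other way and needs its sequence to be read. It read 271 and 333 normalised counts in Setdb1 AKO, against 647 and 2335 in control. Both controls were above both Setdb1 AKO libraries, but they differed from each other by 1.85 on the log2 scale, the widest gap between controls of any member. The log2 fold change was -2.03 ± 0.52 (SE), with an adjusted p of 0.111 (limma). For Gapdh in BAT without control 1, the adjusted p was 0.0356 with a log2 fold change of -2.95, without control 2 it was 0.286 with -1.10, and over all alternatives it lay between 0.0240 and 0.339. Control 2, where Gapdh was highest, was also the BAT library with the most muscle marker RNA (102 CPM), and its part in the Gapdh result was not tested.

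The level of Gapdh was also far below that of its neighbours in the pathway, at 8.65 and 11.98 TPM in Setdb1 AKO and 24.7 and 81.8 TPM in control, where Aldoa stood at 3168 TPM or more in every BAT library. Gapdh is copied many times in the mouse genome, and 62.6% of the 31-base words of its annotated transcripts (GENCODE vM21) also occur in transcripts of other genes, with 136 genes sharing more than 5% of them. In its longest annotated coding sequence, that of transcript ENSMUST00000117757.8 with 1077 bases on chromosome 6 (gene at GRCm38 chr6:125161715-125166467), 60 of 1047 words were its own, all in the first 90 bases. The first 180 bases are shown for this reason, with capitals for bases inside a word that no other annotated gene holds and lower case for bases shared with copies elsewhere.
Gapdh, coding bases 1 to 180: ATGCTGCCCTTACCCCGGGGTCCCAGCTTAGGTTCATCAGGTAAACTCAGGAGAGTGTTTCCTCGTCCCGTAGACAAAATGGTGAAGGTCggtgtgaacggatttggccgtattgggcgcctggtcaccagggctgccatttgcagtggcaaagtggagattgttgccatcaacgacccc
The capitals end at base 90, and no later stretch of this longest coding sequence holds a word of its own. Other coding sequences of Gapdh are not shown, so these 90 bases need not be part of every form. How reads that match several places were counted is not given in the sources used here, so a lower Gapdh count and a different share of reads lost to its copies cannot be told apart. Pgk1 (68.3%), Eno1 (53.5%), Pgam1 (42.1%) and Pdhb (41.9%) also shared over 40% of their words, with 1 to 4 genes above 5% each. Without these genes and Gapdh the median over the other 31 members in BAT was 0.28, as over all 36.

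**Figure D2:**
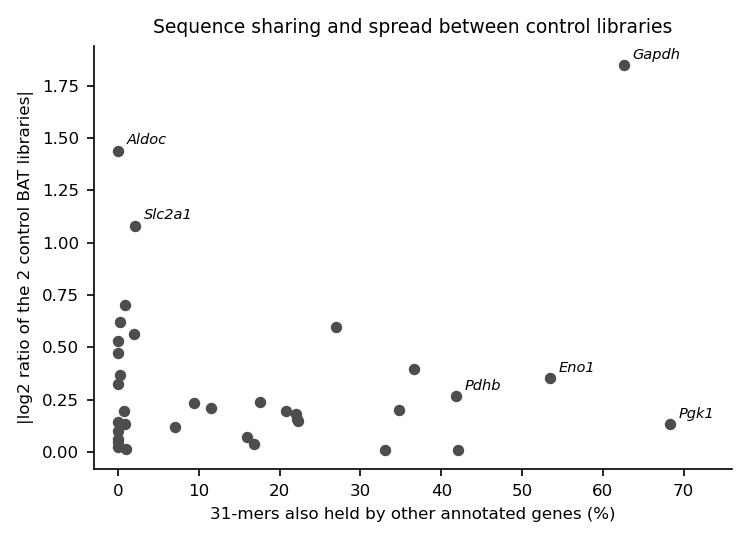
Each point is 1 of the 36 members, with the share of its 31-base words that other annotated genes hold (horizontal, %) and the absolute log2 ratio of the 2 control BAT libraries (vertical). Gapdh combines 62.6% with a ratio of 1.85, while Pgk1, at 68.3%, has a ratio of 0.13, so the members with the most shared words differ in spread.

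The siRNA experiment asked what the same genes did when Setdb1 RNA was lowered in cultured brown adipocytes. Here most members read slightly lower, and Taldo1 had the smallest p of those that read higher. Both siSetdb1 libraries were below siNC for 23 of 36 members, against 33.8% of the 15224 genes tested, and above it for 3 (Pfkfb2, Slc16a1 and Taldo1), against 34.1% of genes. The fitted change was above 0 for 6 members, against 49.3% of genes, and the median log2 fold change was -0.10 over the members and -0.003 over all genes. Among genes with a mean of at least 1000 normalised counts, both siSetdb1 libraries were below siNC for 19 of 31 members and 34.7% of genes, and above it for 2 members and 34.5% of genes. There the fitted change was above 0 for 5 members and 49.4% of genes. All of these comparisons rest on the same siNC library.

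Limma called 0 of 36 members in siRNA cells, against 0.0394% of genes (0.0328% higher and 0.00657% lower). EdgeR (0.19% of genes higher, 0.0525% lower) and DESeq2 (0.0525% higher, 0.0197% lower) also called 0 members. At an unadjusted p below 0.05, 1 member was higher (Taldo1, 3.02% of genes) and 2 were lower (Pfkm and Aldoc, 2.04% of genes). Taldo1 read 10148 and 10257 normalised counts in siSetdb1, against 7636 in siNC, with a log2 fold change of 0.42 ± 0.10 (SE) and an adjusted p of 0.554 (limma), between 0.0574 and 0.946 over the alternatives. Taldo1 was the only member with every Setdb1 AKO, siSetdb1 and 4-OHT library above its controls in all 3 experiments. Of all genes, 25.1% had this order in BAT, 34.1% had it in siRNA and 50.2% were above 0 in 4-OHT. The share of genes with it in all 3 was not counted, so no excess can be read from 1 member. Pfkm, the muscle phosphofructokinase, read 1358 and 1306 normalised counts in siSetdb1, against 1691 in siNC (log2 fold change -0.34 ± 0.12 SE, adjusted p 0.935, limma). Gapdh again differed most between like libraries, with 3571 and 8048 normalised counts in siSetdb1, on both sides of 7522 in siNC. Slc2a4, with both Setdb1 AKO libraries above both controls in BAT, read 6839 and 7569 normalised counts in siSetdb1, against 8358 in siNC.

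**Figure D3:**
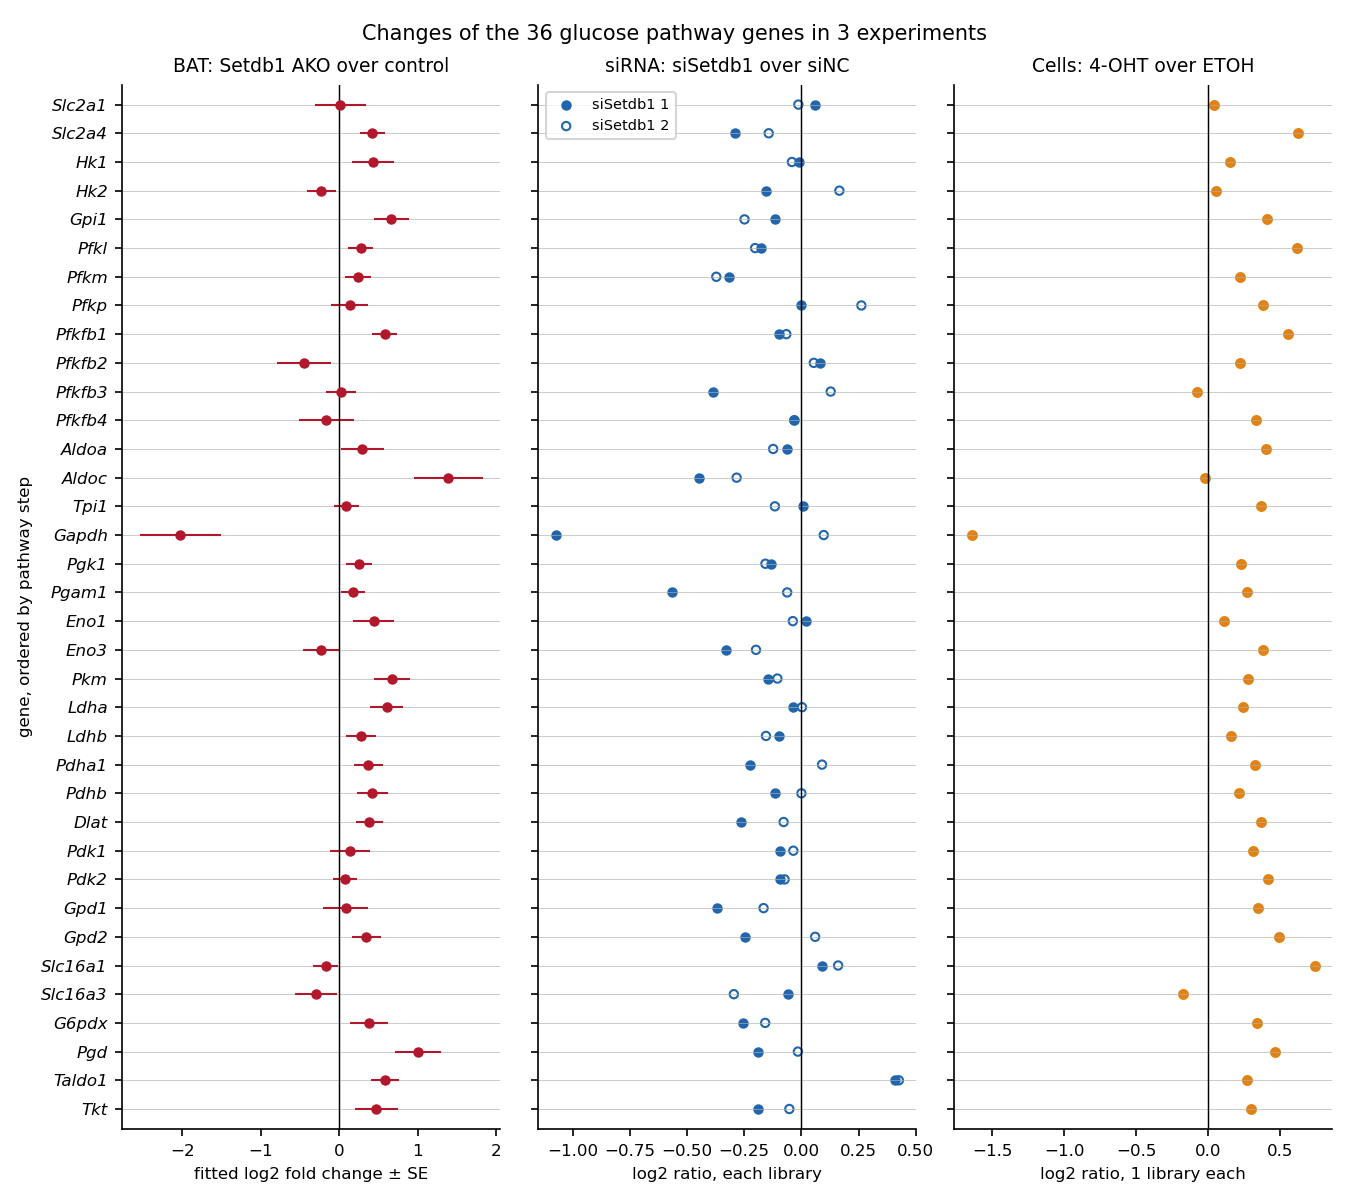
Change of each member in the 3 experiments, in pathway order from uptake at the top to the pentose phosphate genes at the bottom: fitted log2 fold change with its SE in BAT, the log2 ratio of each siSetdb1 library to siNC, and the log2 ratio of 4-OHT to ETOH. Of the 36 members, 29 lie above 0 in BAT, 6 of the fitted values lie above 0 in siRNA and 32 lie above 0 in 4-OHT, and each panel has its own scale.

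The 4-OHT experiment, with 1 library per group, has no replicate check and no p-value, and its ratios compare 2 libraries. Nearly all members read higher in 4-OHT. The log2 ratio was above 0 for 32 of 36 members, against 50.2% of the 13969 genes measured, with a median of 0.31 over the members and 0.001 over all genes. Past 1.5-fold, 3 members were higher, against 4.04% of genes, and 1 was lower, against 6.36% of genes. Among genes with a mean of at least 1000 counts, 29 of 31 members and 53.8% of genes were above 0, 3 members and 1.95% of genes were past 1.5-fold higher, and 0 members and 2.64% of genes past it lower.

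Slc16a1 had the largest ratio, with 11649 counts in 4-OHT and 7169 in ETOH (log2 ratio 0.74), the reverse of its order in BAT. Slc2a4 had 7545 counts in 4-OHT and 5026 in ETOH (log2 ratio 0.63), and Pfkl, the liver-type phosphofructokinase, had 21487 counts in 4-OHT and 14414 in ETOH (log2 ratio 0.62). Scaled by library totals instead, Slc2a4 (0.57) and Pfkl (0.56) fell short of 1.5-fold and the median of the members was 0.25, against -0.05 over all genes. Gapdh was the member past 1.5-fold in the other direction, with 337 counts in 4-OHT and 1090 in ETOH (log2 ratio -1.64), and the limit from its copies holds here too.

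Cell type markers also differed between these 2 libraries. The 12 adipocyte markers summed to 9862 CPM in 4-OHT and 7614 in ETOH, with 11 of 12 above 0 on the log2 scale and a median ratio of 0.38. The 10 macrophage markers were all lower, summing to 2007 CPM in 4-OHT and 3606 in ETOH, and the 9 fibroblast markers summed to 10616 in 4-OHT and 12132 in ETOH. The median ratio of the glucose genes (0.31) was thus close to that of the adipocyte markers, and how far these shifts account for it was not tested.

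Set side by side, most members had the same order of signs over the experiments. Of the 36, 24 had a fitted change above 0 in BAT and in 4-OHT and below 0 in siRNA, against 13.4% of the 12215 genes measured in all 3. This combination joins the majority sign of each experiment given above, so its count follows largely from those counts and is not a separate result. Medians of other lists around the pathway are given below. No member was past 1.5-fold in the same direction in all 3 experiments (0.295% of genes were). The difference between the BAT effect and the siRNA effect was tested directly. Limma called 0 of 36 members for it, against 0.246% of genes, and at an unadjusted p below 0.05 the BAT effect was the higher one for 10 members, against 4.89% of genes. The largest of these were Aldoc, at a difference of 1.76 ± 0.63 (SE), Pgd at 1.10 ± 0.42 (SE) and Gpi1 at 0.85 ± 0.31 (SE), with adjusted p values of 0.395, 0.427 and 0.401 (limma). BAT was tissue with a gene deletion and the siRNA samples were cultured cells with a knockdown, so setting and method cannot be told apart.

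**Figure D4:**
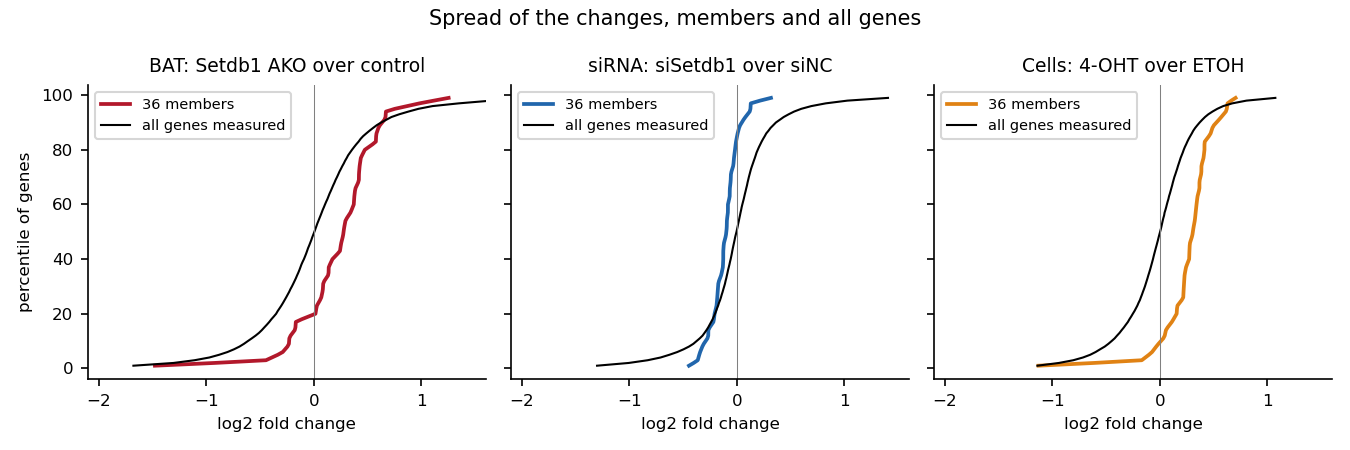
Percentiles of the log2 fold change over the 36 members (coloured line) and over all genes measured (black line) in each experiment. At most percentiles the members' line lies to the right of all genes in BAT and 4-OHT (medians 0.28 and 0.31) and slightly to the left in siRNA (median -0.10), and its low end in BAT and 4-OHT is Gapdh.

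Several steps are carried by paralogs, and their shares of the summed TPM do not depend on how libraries are scaled. In BAT, Hk2 made up 93.2% and 90.4% of the hexokinase pair in Setdb1 AKO, against 95.1% and 94.4% in control. The shares did not overlap, but 2 libraries against 2 cannot give an exact two-sided permutation p below 0.333, which is the value found, so none of the 9 families could pass a threshold. Ldha held 55.5% and 64.9% of the lactate dehydrogenase pair in Setdb1 AKO, against 56.0% and 53.6% in control. These shares overlapped, with Ldhb at its highest count, 12388, in Setdb1 AKO 1. Pdk2 held 91.5% to 94.4% of the Pdk1 and Pdk2 sum in the BAT libraries.

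The second members of several families took larger shares in the cultured cells, and these levels come from tables processed apart, so they are set side by side with no test. Hk2 held 60.8% and 66.4% of the hexokinase pair in siSetdb1, against 63.1% in siNC, and 79.1% in 4-OHT, against 80.2% in ETOH, so it stayed the larger of the pair. Pdk1, a kinase induced by low oxygen, held 51.4% of the Pdk1 and Pdk2 sum in 4-OHT and 53.1% in ETOH, 29.2% and 29.8% in siSetdb1 and 29.3% in siNC, where in BAT it held 5.63% to 8.52%. Slc2a4 held 69.1% of the Slc2a1 and Slc2a4 sum in 4-OHT and 59.8% in ETOH, and 85.6% and 87.4% in siSetdb1, against 88.4% in siNC. Slc16a1 held 85.4% of the Slc16a1 and Slc16a3 sum in 4-OHT and 75.6% in ETOH. Slc16a1 itself had the largest 4-OHT ratio of all members, while Slc16a3 read slightly lower, with 2387 counts in 4-OHT and 2775 in ETOH. Tkt, at 1013 TPM or more in every BAT library, stood at 497 and 565 TPM in siSetdb1, against 569 TPM in siNC, and at 219 TPM in 4-OHT, against 192 TPM in ETOH.

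**Figure D5:**
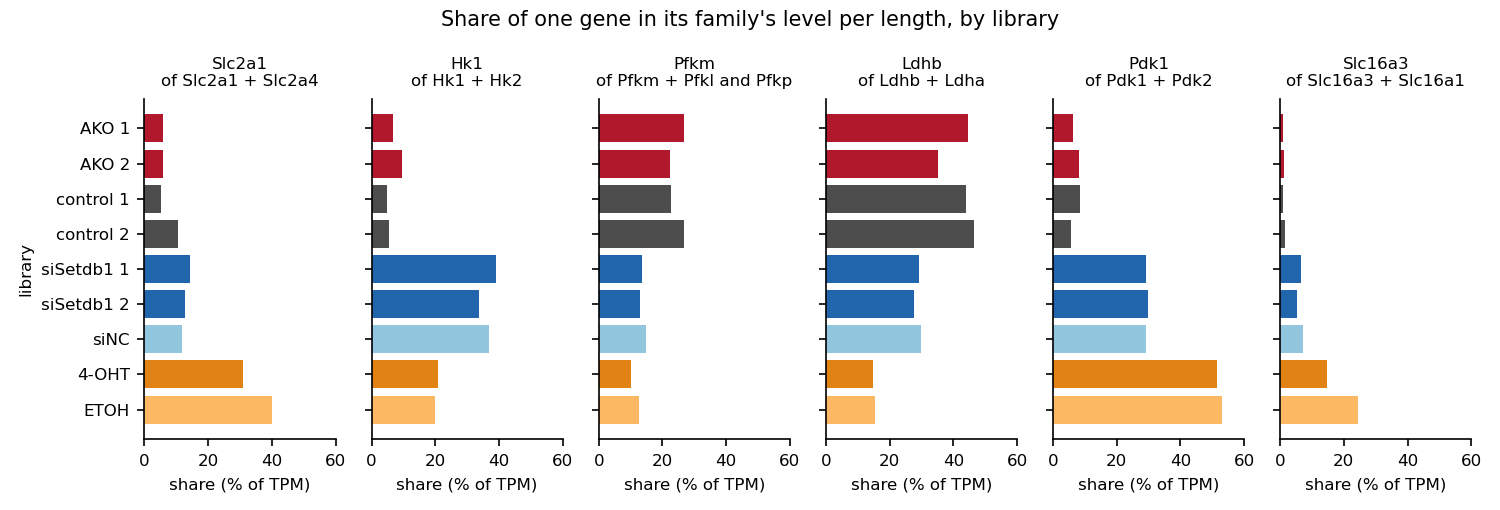
Share of 1 gene in the summed TPM of its family, by library (bars from 0%), with Setdb1 AKO, siSetdb1 and 4-OHT each drawn above their controls. Hk1, Pdk1, Slc2a1 and Slc16a3 take larger shares in the cultured cells than in BAT, and Ldhb and Pfkm smaller ones.

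Promoter sequence was examined because most members shared a sign within each experiment. Windows of 300 bases, from 250 before to 50 after each start, were available from RefSeq (GRCm38.p6) for 34 of the 36 members, with 55 windows in all. The motif ACGTG, the core bound by hypoxia-inducible factors, occurred on either strand in 23 of these 55 windows (41.8%), against 19.6% of all 32851 windows. The related GCGTG occurred in 54.5% of the members' windows, against 32.4% of all, and CACGTG, the E-box read by factors such as ChREBP and MYC, in 10.9%, against 7.15% of all. The members' windows were richer in the dinucleotide CG, which all 3 motifs contain, with a median of 18 per window, against 7 over all windows, and its part in these shares was not tested.

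Windows of 4 members are shown: the 3 with the most ACGTG matches, Ldha (5), Slc16a1 (3) and Pfkm (3), and the more upstream of the 2 windows of Pgd, whose change was the highest of the pentose phosphate genes and which holds none. Capitals mark ACGTG and GCGTG on either strand (CACGT and CACGC on the other), and a CACGTG counts as 2 ACGTG matches because it reads the same on both strands. Each is written 5′ to 3′ in the direction of the gene.
Ldha, chr7:46845554-46845853, plus strand: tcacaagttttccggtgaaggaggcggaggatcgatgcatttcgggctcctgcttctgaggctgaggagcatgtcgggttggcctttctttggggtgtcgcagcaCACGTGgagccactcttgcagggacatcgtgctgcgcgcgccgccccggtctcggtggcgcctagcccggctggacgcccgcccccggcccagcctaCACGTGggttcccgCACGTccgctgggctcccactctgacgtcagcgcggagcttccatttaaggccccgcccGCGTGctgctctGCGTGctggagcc
Slc16a1, chr3:104638414-104638713, plus strand: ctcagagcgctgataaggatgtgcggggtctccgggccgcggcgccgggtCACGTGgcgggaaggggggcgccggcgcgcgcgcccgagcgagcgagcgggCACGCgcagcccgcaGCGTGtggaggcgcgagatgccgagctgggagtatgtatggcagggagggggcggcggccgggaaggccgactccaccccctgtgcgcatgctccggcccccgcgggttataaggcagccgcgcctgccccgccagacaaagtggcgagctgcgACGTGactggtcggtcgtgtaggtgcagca
Pfkm, chr15:98092339-98092638, plus strand: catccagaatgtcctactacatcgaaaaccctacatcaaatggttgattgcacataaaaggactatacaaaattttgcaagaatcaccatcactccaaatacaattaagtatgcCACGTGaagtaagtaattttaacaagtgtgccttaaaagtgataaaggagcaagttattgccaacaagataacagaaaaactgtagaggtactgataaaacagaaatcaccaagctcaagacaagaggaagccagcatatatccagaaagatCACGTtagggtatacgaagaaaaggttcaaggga
Pgd, chr4:149166656-149166955, minus strand: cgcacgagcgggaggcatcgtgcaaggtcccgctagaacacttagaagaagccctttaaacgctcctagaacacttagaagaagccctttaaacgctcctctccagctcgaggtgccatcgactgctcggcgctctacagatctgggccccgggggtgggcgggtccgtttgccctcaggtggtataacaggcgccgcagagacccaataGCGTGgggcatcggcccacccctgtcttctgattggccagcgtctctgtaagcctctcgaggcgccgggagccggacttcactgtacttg
The BAT log2 fold change was 0.61 for Ldha, -0.17 for Slc16a1, 0.24 for Pfkm and 1.00 for Pgd. A match says only that these letters are in the window.

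Other genes around the pathway gave the clearest single changes in BAT. Of 24 glycogen genes, all tested, 1 rose and 1 fell (limma). Their median log2 fold change was 0.30 in BAT, -0.07 in siRNA and 0.26 in 4-OHT. For the pyruvate and lactate genes it was 0.12, -0.06 and 0.26, so both lists had the members' order of signs. The other lists did not, with medians of -0.01, -0.14 and -0.04 for other glycolysis and hexose genes. Medians were 0.19, 0.09 and 0.01 for pentose phosphate and nucleotide sugar genes, and 0.15, 0.01 and 0.16 for regulators of insulin and glucose sensing. Gys2, the glycogen synthase best known from liver, rose to 883 and 650 normalised counts in Setdb1 AKO, against 148 and 163 in control (log2 fold change 2.28 ± 0.21 SE, adjusted p 0.00410, limma). Ppp1r3c, a subunit that brings protein phosphatase to glycogen, fell to 504 and 597 normalised counts in Setdb1 AKO, against 2410 and 1513 in control (log2 fold change -1.80 ± 0.23 SE, adjusted p 0.0200, limma). Both were called by edgeR and DESeq2 as well. In 4-OHT, Gys2 had a log2 ratio of 0.88 and Ppp1r3c one of 1.24, so Ppp1r3c went the other way there, and in siRNA neither was called, at -0.08 and 0.16. Pygl, the glycogen phosphorylase that releases glucose 1-phosphate, missed the threshold at 15317 and 19770 normalised counts in Setdb1 AKO, against 8401 and 5529 in control (adjusted p 0.05004, just above the limit, limma).

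Of 25 other glycolysis and hexose genes, 19 were tested in BAT and 1 fell, Gapdhs, the sperm form of Gapdh, to 8.23 and 8.25 normalised counts in Setdb1 AKO, against 60.5 and 61.9 in control (adjusted p 0.0255, limma). The next by p were the fructose carrier Slc2a5 and the hexose carrier Slc2a12, at log2 fold changes of 1.66 and 1.20, neither called. Of 21 genes tested for the fate of pyruvate and lactate, limma and edgeR called 0 and DESeq2 1 (Pck1). At an unadjusted p below 0.05 (limma), 2 were higher and 2 lower. The shares of all genes, which also apply to the BAT lists below, were 8.64% higher and 9.08% lower. Me1, the malic enzyme that also makes NADPH, read 12993 and 23981 normalised counts in Setdb1 AKO, against 9513 and 4721 in control (adjusted p 0.134, limma). Pck1, which starts the synthesis of glycerol from pyruvate, had a log2 fold change of -0.97 (adjusted p 0.160, limma) in BAT and a log2 ratio of -2.06 in 4-OHT, while the lactate carrier Slc16a7 stood at -0.59 in BAT.

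Among 13 further genes of the pentose phosphate and nucleotide sugar routes, limma and edgeR called 0 in BAT and DESeq2 1 (Gfpt2), with 2 higher and 0 lower at an unadjusted p below 0.05. Gfpt2, which opens the hexosamine route, had a log2 fold change of 1.02 in BAT and a log2 ratio of -0.90 in 4-OHT. Rpe, the ribulose phosphate epimerase, stood at 0.51 and Uap1 at 0.19 in BAT. Of 28 tested regulators of insulin and glucose sensing, limma and edgeR called 0 and DESeq2 3, with 2 higher and 5 lower at an unadjusted p below 0.05. The 3 were Foxo1, a transcription factor restrained by insulin, Egln3, an oxygen-sensing hydroxylase, and the insulin receptor substrate Irs1, with log2 fold changes of -0.78, -0.997 and -0.74. In siRNA, limma, edgeR and DESeq2 called 0 genes of all 5 lists. At an unadjusted p below 0.05 the lists had 1 gene higher and 3 lower, against 3.02% of all genes higher and 2.04% lower. These 4 were Prkaa1, higher, and Got1, Pcx and Mlxipl, lower.

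Past 1.5-fold in 4-OHT, 0 of 17 other glycolysis genes were higher and 1 lower, and 2 of 21 pyruvate and lactate genes were higher and 2 lower. For the 13 pentose phosphate and nucleotide sugar genes it was 0 and 1, for 23 glycogen genes 2 and 0, and for 29 regulators 1 and 0. Over all genes measured, 4.04% were higher and 6.36% lower, with 1 library per group. The 5 genes whose 4-OHT ratios were not given above follow. Mlxipl, which encodes the glucose-sensing factor ChREBP, had 2306 counts in 4-OHT and 1447 in ETOH (log2 ratio 0.71), and Got1, an aspartate aminotransferase, 1597 in 4-OHT and 1081 in ETOH (log2 ratio 0.61). Fbp2, a fructose bisphosphatase best known from muscle, was low, with 59 counts in 4-OHT and 19 in ETOH (log2 ratio 1.58). Emb, a partner of lactate carriers, read lower with 1205 counts in 4-OHT and 1934 in ETOH (log2 ratio -0.64), and the neuronal enolase Eno2 with 94 in 4-OHT and 162 in ETOH (log2 ratio -0.73).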

How the data were processed

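RNA was measured in 9 libraries of 3 experiments. The submitters' processing notes name GRCm38, featureCounts 2.0.3, STAR 2.7.10a, DESeq2 1.36.0 and Trimmomatic 0.39. The annotation, the strand setting and the counting of reads with several matches are not given in the sources used here, so reads of overlapping, antisense or copied genes may be misassigned. For BAT and siRNA, the authors deposited a scaled signal per gene, called a normalised count here. For 4-OHT and ETOH, the authors deposited a raw count. The deposited p-value and adjusted p were used only where named as the authors', and the deposited gene length served for TPM. Dividing each signal column by its step recovered whole reads (tolerance 0.05) for 100% of values, and the siRNA tables were joined through siNC, whose reads were the same in 19381 genes.

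The main test was limma 3.58.1 on log2(normalised count + 1), which understates changes of low genes, with Benjamini-Hochberg adjustment over all genes with at least 10 normalised counts in 2 BAT libraries or 1 siRNA library, called at a false discovery rate of 0.05. The lone siNC library was assumed to vary like the siSetdb1 libraries. edgeR 4.0.16 (quasi-likelihood) and DESeq2 1.42.0 on recovered reads were alternatives. For 4-OHT, TMM-scaled log2 ratios with a prior count of 2 were taken for genes with at least 50 counts in 1 or both libraries. TPM were computed from reads and gene length. The fits were also run on simulated data. The outcome is not given here, and no value above rests on it. No label says that replicates came from separate animals or cultures, so the spread behind each p may be technical.

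The members and all lists were chosen with earlier results of these data known. Full values are given for the 10 members with the smallest unadjusted p in BAT and those past a threshold in any experiment, and from the other lists for the genes past the threshold and the 3 with the smallest p in BAT. Other values were chosen after they were seen. The level of 1 marker gene is not reported here. Word sharing used GENCODE vM21 transcripts and promoters came from RefSeq.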

Additional observations from a re-analysis of the deposited data

Results flagged for a closer look

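Between the 2 Cre deletions, 3 members had both Setdb1 AKO libraries on one side of both controls in BAT and the 4-OHT library on the opposite side of ETOH, and this difference was not tested. Of all genes, 25.1% had both Setdb1 AKO libraries above both controls, 24.9% had both below, and 50.2% were above 0 in 4-OHT. The share of genes with opposite orders was not counted, so 3 members are not shown to be more than usual. For Slc16a1 the 4-OHT log2 ratio exceeded the BAT log2 fold change by 0.92, for Pfkfb2, at 39.2 to 70.0 normalised counts in BAT, by 0.68, and for Aldoc the difference was -1.41.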

How the results depend on the processing

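The BAT count of genes called was 11 with no filter on low values and 651 with DESeq2, and leaving out 1 library at a time gave 22 to 157. The BAT count of members called was 4 with DESeq2 and 0 to 1 with a library left out. With scaling by library total, an alternative added after seeing the data, limma called 126 genes higher and 135 lower in BAT, against 145 and 98 with the deposited scaling. Same-numbered BAT libraries did not deviate together (correlation -0.015, 2 pairs), so the numbers were not taken as pairs. With the replicate block limma called 299 genes and 1 member, Gapdh. The siRNA count of genes was 65 with TMM scaling, 55 by library total, 0 with no filter, 29 with a filter of 50, 37 with edgeR and 11 with DESeq2, with 0 members in each. Leaving out a siSetdb1 library leaves 1 against 1, with no test, and siNC cannot be left out. By library total, 2 members passed 1.5-fold in 4-OHT, with a median of 0.25. The difference of BAT and siRNA effects was called for 6 to 80 genes, and for 0 members, with a library left out.

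Of 1007 single-gene values under alternatives, 971 kept direction and call, 6 gained a call, 2 lost one and 28 changed sign. By library total, the log2 change was -0.067 for Slc2a1 in BAT, -0.055 for Pfkfb3 in BAT and -0.014 for Pdk2 in BAT, 0.014 for Eno1 in siRNA and 0.0056 for Ldha in siRNA, and -0.015 for Slc2a1 in 4-OHT. Slc2a1 in BAT was -0.072 with edgeR and -0.078 with DESeq2. With 1 library left out, log2 changes in BAT were -0.56 to 0.22 for Pfkfb4, -0.53 to 0.56 for Slc2a1, -0.22 to 0.50 for Pfkp, -0.086 to 0.14 for Pfkfb3, -0.21 to 0.49 for Pdk1 and -0.021 to 0.19 for Gpd1. With 1 library left out, log2 changes in siRNA were -0.014 to 0.061 for Slc2a1, -0.39 to 0.13 for Pfkfb3, -1.07 to 0.097 for Gapdh, -0.037 to 0.0024 for Ldha, -0.22 to 0.090 for Pdha1, -0.25 to 0.060 for Gpd2, -0.16 to 0.17 for Hk2, -0.0027 to 0.26 for Pfkp, -0.12 to 0.0061 for Tpi1 and -0.038 to 0.021 for Eno1. The cause of these changes was not tested.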

Other observations

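The second identifier of Aldoa, ENSMUSG00000114515, lies just upstream of the main gene on the same strand (GRCm38 chr7:126800790-126809108) and shares none of its 31-base words with other annotated genes. It had 87 counts in 4-OHT and 25 in ETOH, a log2 ratio of 1.76. In siRNA it read 18.2 and 55.0 normalised counts in siSetdb1, against 55.3 in siNC. In BAT it read 3.09 and 13.4 normalised counts in Setdb1 AKO, against 5.50 and 2.03 in control, below the filter on low values.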
